A study of Mus musculus with 4 samples.

Results

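Malat1, Neat1, Kcnq1ot1, Tug1, Pvt1 and Miat are long noncoding RNAs best known for what they do in the nucleus, and their levels are described here in wild-type and Dis3-/- hematopoietic stem cells. They are 6 of the 24411 genes in the deposited tables. The 6 were selected on measured values, namely earlier results of these same libraries for wild type against Dis3-/-, so their differences between genotypes are a description and carry no test. Each genotype had 2 libraries of 100 sorted mouse stem cells, on a C57BL/6 background. The wild-type marrow was Dis3fl/fl without a Cre transgene, and the Dis3-/- marrow was Dis3fl/fl;Mx-Cre, in which Cre is driven by the interferon-inducible Mx promoter. Marrow of either genotype had been transplanted into lethally irradiated CD45.1 hosts, which were given pIpC, an interferon-inducing RNA duplex, at 300 µg on days 0 and 2, starting 4 weeks after the graft. That wild-type grafts were treated in the same way is read from protocol text common to both genotypes. Cells were sorted on day 4 as Lineage- EPCR+ CD150+ CD48-, and total RNA was converted to full-length libraries by RamDA-seq, which primes without a poly(A) tail and therefore also reads nonpolyadenylated transcripts.

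Dis3 is a catalytic subunit of the RNA exosome, the machine that shortens or destroys RNAs starting at their 3′ end. Long nuclear RNAs differ in how that end is protected. Most carry a poly(A) tail, whereas Malat1 and the long isoform of Neat1 are cut by RNase P just before a tRNA-like structure and then end in a triple helix, in which U-rich stretches grip an A-rich end. Malat1 accumulates in nuclear speckles, which store splicing factors. Neat1 has a short polyadenylated isoform and a long isoform that is the scaffold of paraspeckles, bodies that hold RNA-binding proteins. Kcnq1ot1 is made from the paternal chromosome and silences imprinted genes around it, Tug1 is a p53-responsive RNA linked to Polycomb repression, Pvt1 lies next to the Myc gene, and Miat (Gomafu) binds splicing factors.

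The libraries held between 6085367 and 6818535 expected counts (reads assigned to a gene by a statistical estimate). Between 14785 and 14874 genes were above 0, and 12244 genes passed the filter on low counts. Dis3 had 388 and 335 counts in wild-type cells and 140 and 193 in Dis3-/- cells, and its log2 fold change was -1.02 ± 0.14 (SE; edgeR's quasi-likelihood test with Benjamini-Hochberg adjustment, adjusted p = 2.58e-04). Dis3 reads thus remained in both Dis3-/- libraries, and the tables give 1 value per gene, so the floxed exons were not examined. Of 15 stem cell marker genes, all were detected. Their summed level was 4187 and 3881 CPM in the wild-type and 3138 and 3152 CPM in the Dis3-/- libraries, with 1 gene called higher and 5 called lower. Cd48, which the gate excludes, and Cd34 and Flt3, which the gate does not use, together summed to 419 and 438 CPM against 337 and 290 CPM. Of these 3 genes, 2 were called lower. Cd34 made up most of the sum (345 and 354 CPM against 290 and 247 CPM). The 6 granulocyte genes summed to 247 and 232 CPM against 145 and 146 CPM, and the 6 endothelial and stromal genes to 147 and 139 CPM against 83.3 and 76.6 CPM, with 2 called lower in each list. Monocyte and macrophage genes summed to 212 and 233 CPM against 192 and 181 CPM, with 1 called lower. Single genes made up most of these 3 sums. They were Csf3r for granulocytes (212 and 202 CPM against 122 and 125 CPM), Pecam1 (110 and 112 against 74.7 and 65) and Lyz2 (183 and 198 against 180 and 168). Also present were Prtn3 for granulocytes (32.4 and 25.7 CPM against 19 and 17.5 CPM), Pdgfrb (33.6 and 22.2 against 5.89 and 9.23) and Itgam (26.8 and 34 against 11.3 and 11.9). Mpo, Elane, S100a8 and S100a9 were at most at 2.52 CPM, and Cdh5, Col1a1 and Cxcl12 at most at 0.469 CPM. Sums over all 4 libraries ran from 44.2 to 93.5 CPM for megakaryocytes and 38.6 to 50.7 CPM for erythroid cells, with 1 gene called lower in each. They ran from 60.8 to 85 CPM for T and NK cells and 12.3 to 16.2 CPM for B cells, with none called, and from 1.72 to 12.9 CPM for mast cells, with 1 called lower. Within these lists Cd3e, Cd3g and Ncr1 (T and NK cells), Ebf1 (B cells), Mcpt8 and Ms4a2 (mast cells) and Car1 (erythroid cells) were at 0 in every library, whereas Nkg7 (60.5 to 85 CPM), Cd79b (11.1 to 16 CPM), Cpa3 (1.72 to 12.9 CPM) and Hbb-bt (27.7 to 43.4 CPM) were present. The part of these marker shifts in the levels given below was not tested. The design text gives 2 mice as the replication, and no other label says how replicates were separated, so the errors measure the spread between these libraries.

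The ends of the 2 transcripts that finish without a poly(A) tail are shown first, because the exosome acts from the 3′ end and these ends are built in a way of their own. Both genes lie on the reverse strand of mouse chromosome 19 in the GRCm38 assembly. The first sequence is the last 110 bases of the long Neat1 isoform, at chr19:5824708-5824817, and the next is the matching stretch of the single-exon Malat1 transcript, at chr19:5795982-5796091. Sequences are from GENCODE M21 and written as DNA. Capitals mark U-rich stretches (8 bases with at least 6 T, starting and ending in T) and the 11 bases that both stretches end in.
Neat1, long isoform: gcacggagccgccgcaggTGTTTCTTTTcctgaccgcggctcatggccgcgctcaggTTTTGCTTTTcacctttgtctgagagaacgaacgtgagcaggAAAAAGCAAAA
Malat1: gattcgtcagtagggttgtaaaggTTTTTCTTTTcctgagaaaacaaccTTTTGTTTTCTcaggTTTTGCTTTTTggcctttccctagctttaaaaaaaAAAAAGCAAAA
The Neat1 end held 2 U-rich stretches and the Malat1 end held 3, ahead of the same A-rich end. At least 2 such stretches occurred in the last 110 bases of 11.7% of GENCODE transcripts. The 11 shared bases occurred anywhere in 618 of 141767 transcripts (0.436%), and 9 transcripts ended in them. In this Malat1 transcript they occurred once, with 292 annotated bases after them, where RefSeq also lists Mascrna, the tRNA-like RNA that RNase P releases.

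The other kind of end is the poly(A) signal, shown in capitals in the last 60 bases of the short Neat1 isoform (chr19:5842307-5842366, in its last exon) and of the same Malat1 transcript (chr19:5795690-5795749).
Neat1, short isoform: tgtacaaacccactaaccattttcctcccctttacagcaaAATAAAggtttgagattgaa
Malat1, annotated end: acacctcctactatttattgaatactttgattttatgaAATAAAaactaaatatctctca
The letters AATAAA stood within the last 50 bases of 1 of 4 annotated Neat1 transcripts, 3 of 4 Malat1 transcripts, the 1 Kcnq1ot1 transcript, 3 of 8 Tug1 transcripts, 6 of 10 Pvt1 transcripts and 0 of 6 Miat transcripts. Among all 141767 transcripts the share was 26.6%, and among 30258 noncoding transcripts it was 23.5%. A match describes letters only, and no match says only that these letters are not in this window.

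Neat1 was higher in both Dis3-/- libraries than in either wild-type library. It spans chr19:5824708-5845480 on the reverse strand (20.8 kb). The wild-type libraries had 5916 and 5763 counts and the Dis3-/- libraries 9646 and 13918. In CPM (counts scaled to a common library size, with TMM factors) these were 852 and 915 CPM against 1624 and 2176 CPM, or 884 ± 44.4 against 1900 ± 391 CPM (mean ± SD, n = 2 each). The lowest Dis3-/- value was 1.77 times the highest wild-type value, while the Dis3-/- libraries differed from each other by 1.34 times and the wild-type libraries by 1.07 times. The log2 fold change from the fit over all genes was 1.10 ± 0.10 (SE), a 2.15-fold difference, and it ranked at the 97.1 percentile of all tested genes. In libraries from sorted bulk cells, more cells of a type and more RNA per cell cannot be told apart. Without Dis3-/- replicate 2, the higher of the pair, the log2 fold change was 0.88.

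Malat1, the most abundant of the 6, did not separate the genotypes in CPM. It occupies chr19:5795690-5802672 on the reverse strand, 22.0 kb from Neat1. The wild-type libraries had 47483 and 42564 counts and the Dis3-/- libraries 35709 and 44276. In CPM these were 6841 and 6759 against 6010 and 6923, or 6800 ± 57.7 against 6467 ± 645 (mean ± SD, n = 2 each). One Dis3-/- library was below both wild-type libraries and the other was above both. The log2 fold change was -0.07 ± 0.05 (SE). It was 0.03 without Dis3-/- replicate 1 and -0.18 without Dis3-/- replicate 2, so its direction depended on which single Dis3-/- library was kept, with the spread then taken from the wild-type pair and the other genes. In TPM, which scales by length to a common total, Malat1 was at 2365 and 2296 against 1879 and 2224, and here the genotypes did not overlap. The TPM scale itself moved the median log2 fold change of all tested genes by -0.104, and the log2 fold change of Malat1 on log2(TPM + 1) was -0.19.

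**Figure D1:**
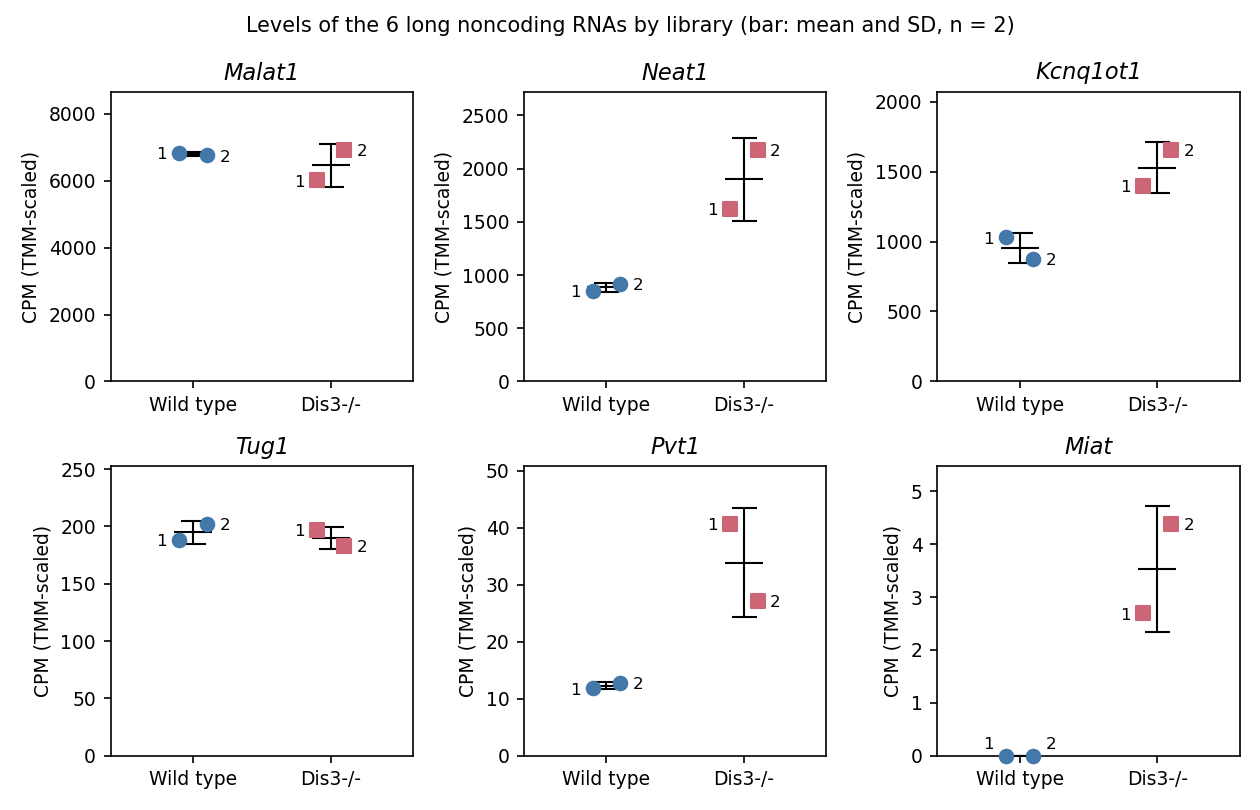
Level of each of the 6 long noncoding RNAs in CPM on TMM-scaled library sizes (vertical axes from 0, a separate scale for each gene), with circles for the wild-type and squares for the Dis3-/- libraries numbered by replicate, and a line and bar for mean and SD over 2 libraries. Neat1, Kcnq1ot1, Pvt1 and Miat are higher in both Dis3-/- libraries, whereas the genotypes overlap for Malat1 (6010 to 6923 CPM) and Tug1 (183 to 202 CPM).

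The balance between Malat1 and Neat1, neighbours on chromosome 19, differed between the genotypes. The TPM ratio of Malat1 to Neat1 was 7.99 and 7.76 in the wild-type libraries, and 3.72 and 3.0 in the Dis3-/- libraries. Malat1 supplied 76.7% and 77.1% of the counts of the 6 transcripts in wild-type cells and 64.8% and 63.1% in Dis3-/- cells. Neat1 supplied 9.55% and 10.4% against 17.5% and 19.8%, and Kcnq1ot1 supplied 11.5% and 10.0% against 15.1% in each Dis3-/- library. All 6 together took 0.908% (95% Wilson interval 0.901% to 0.915%) and 0.883% (0.876% to 0.890%) of the wild-type libraries. In the Dis3-/- libraries they took 0.905% (0.898% to 0.913%) and 1.09% (1.08% to 1.10%). The intervals describe counting error alone, because no molecular identifiers mark which reads stem from the same molecule. The summed share overlapped between the genotypes although its makeup did not.

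Expected counts and TPM together also carry the length that the authors' estimate gave to a gene, averaged over its isoforms. Scaled to the 6983 bases of Malat1, the implied length of Neat1 was 6949 and 7338 bases in the wild-type and 7008 and 6588 bases in the Dis3-/- libraries. These values lie between the 3004 bases of the short isoform and the 20771 bases of the long isoform. If only those 2 isoforms were present, the long isoform would make up 22.2% and 24.4% of Neat1 molecules in wild-type and 22.5% and 20.2% in Dis3-/- cells. The genotypes overlapped, and the mean log2 difference in implied length was -0.073. The isoforms overlap at their start, and the authors' annotation (not given in the sources used here) may differ, so these shares are model estimates. For Tug1 the implied length was 5216 and 5277 bases against 5359 and 5289 bases, without overlap, but the log2 difference was 0.020. A shift of that size or more was seen in 5.81% of 7655 well-covered genes, against 1.27% for a shift as large as that of Neat1.

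**Figure D2:**
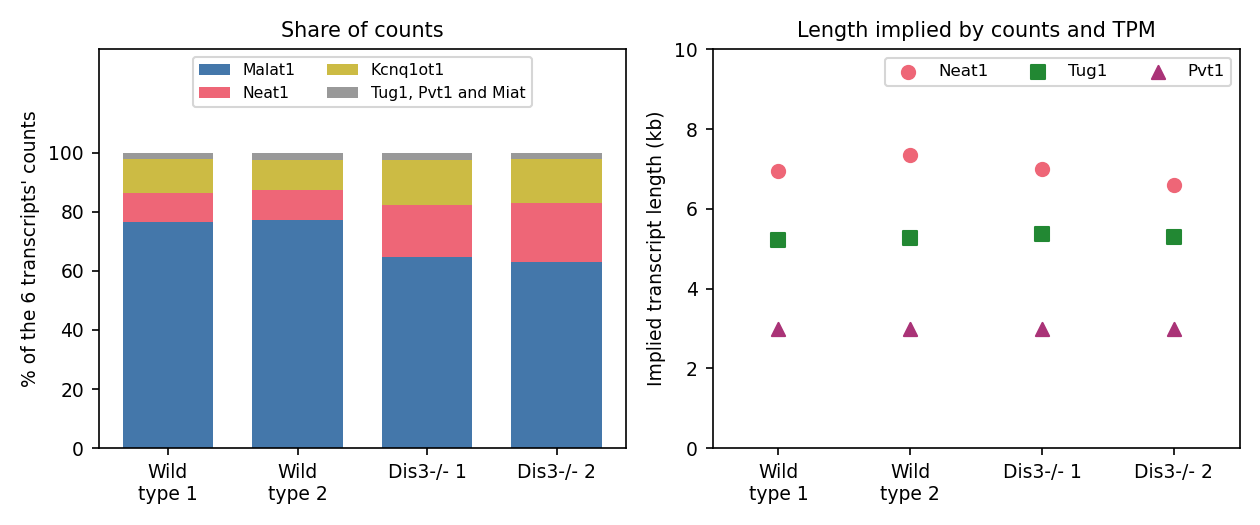
Left, the share of the counts of the 6 transcripts (percent, vertical axis) taken by each in the 4 libraries as stacked bars. Right, the transcript length in kb implied by counts and TPM for Neat1, Tug1 and Pvt1 in the same libraries; Malat1 fills 76.7% and 77.1% of the wild-type bars and 64.8% and 63.1% of the Dis3-/- bars, while the Neat1 points overlap between genotypes at 6588 to 7338 bases.

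Kcnq1ot1 was likewise higher in both Dis3-/- libraries. RefSeq places it at chr7:143213111-143296547 on the reverse strand as a single unspliced transcript of 83.4 kb. It lies antisense to Kcnq1, a potassium channel gene that had 0 counts in every library. The wild-type libraries had 7147 and 5530 counts and the Dis3-/- libraries 8316 and 10585. In CPM these were 1030 and 878 against 1400 and 1655, or 954 ± 107 against 1527 ± 181 (mean ± SD, n = 2 each). The lowest Dis3-/- value was 1.36 times the highest wild-type value, and replicates differed by 1.17 times in wild-type and 1.18 times in Dis3-/- cells. The log2 fold change was 0.68 ± 0.08 (SE), a 1.6-fold difference. In TPM the transcript was at 29.2 and 24.5 against 36.0 and 43.6.

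The Kcnq1ot1 promoter is shown because transcription from it runs antisense to Kcnq1, within the imprinted domain, and because it carries repeated CCAAT letters. It is the RefSeq window from 250 bases before to 50 bases after the start, at chr7:143296498-143296797 on the reverse strand of GRCm38.p6, with CCAAT in capitals.
Kcnq1ot1: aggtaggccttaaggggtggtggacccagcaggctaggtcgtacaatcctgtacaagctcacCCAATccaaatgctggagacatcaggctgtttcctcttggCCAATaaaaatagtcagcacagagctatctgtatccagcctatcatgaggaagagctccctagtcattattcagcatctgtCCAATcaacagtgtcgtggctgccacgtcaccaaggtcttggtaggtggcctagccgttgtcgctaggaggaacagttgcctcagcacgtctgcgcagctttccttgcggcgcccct
CCAAT, searched on both strands, was found 3 times in this window. It was found at least once in 37.4% of 32851 RefSeq promoters of the same length, and at least 3 times in 3.37%. The promoter table matched 4 of the 6 transcripts (Malat1, Miat, Kcnq1ot1 and Tug1), and the other 3 of these windows held no CCAAT. Of TATAAA, TGACGTCA and CCGCCC, also searched on both strands and found in 13.6%, 1.79% and 35.7% of promoters, the Kcnq1ot1 and Malat1 windows held none, and the Miat and Tug1 windows held CCGCCC once each. These are letter matches, not binding sites.

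Tug1 did not separate the genotypes in CPM. It lies at chr11:3639785-3648814 on the reverse strand. The wild-type libraries had 1302 and 1273 counts and the Dis3-/- libraries 1168 and 1170. In CPM these were 188 and 202 against 197 and 183, or 195 ± 10.3 against 190 ± 9.65 (mean ± SD, n = 2 each), so the groups overlapped. The log2 fold change was -0.04 ± 0.08 (SE). It turned to 0.01 without wild-type replicate 2 and to 0.02 without Dis3-/- replicate 2. In TPM, 86.8 and 90.9 stood against 80.1 and 77.6, without overlap, and the log2 fold change on log2(TPM + 1) was -0.17, next to the shift of -0.104 that this scale gave all tested genes.

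Pvt1 had the largest fold difference among the members detected in every library. RefSeq places it at chr15:62037986-62260215 on the forward strand, a span of 222 kb. The wild-type libraries had 82 and 80 counts and the Dis3-/- libraries 241 and 173. In CPM these were 11.8 and 12.7 against 40.6 and 27.1, or 12.3 ± 0.63 against 33.8 ± 9.55 (mean ± SD, n = 2 each). The lowest Dis3-/- value was 2.13 times the highest wild-type value, and the Dis3-/- libraries differed from each other by 1.5 times. The log2 fold change was 1.46 ± 0.21 (SE), a 2.75-fold difference at the 98.3 percentile of tested genes. Without Dis3-/- replicate 1 it was 1.15. Pvt1 overlaps the pseudogene H2afy3 on the other strand, which had 22 and 25 counts in wild-type cells and 66 and 63 in Dis3-/- cells. Strand use in counting was not given in the sources used here. Without it, reads of this pair cannot be told apart where they overlap.

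Miat had no count in wild-type cells and few in Dis3-/- cells. It lies at chr5:112213228-112228948 on the reverse strand. Both wild-type libraries were at 0 counts, and the Dis3-/- libraries had 16 (95% Poisson interval 9.15 to 26.0) and 28 (18.6 to 40.5), or 2.69 and 4.38 CPM. A count of 0 allows up to 3 counts, which is 0.227 CPM over the pooled wild-type libraries. Against that floor the pooled Dis3-/- level of 3.57 CPM was 15.7-fold higher, a log2 difference of 3.98. This ratio leaves out the counting error of the Dis3-/- libraries, so the true difference may be smaller. Miat ranked 11991 of the 12244 tested genes by mean CPM, and it passed the low-count filter only through the Dis3-/- libraries, so that a gene at 0 in wild-type cells had to differ. Its RefSeq promoter, 64.3% G and C, is shown for comparison with that of Kcnq1ot1, at chr5:112228899-112229198 on the reverse strand.
Miat: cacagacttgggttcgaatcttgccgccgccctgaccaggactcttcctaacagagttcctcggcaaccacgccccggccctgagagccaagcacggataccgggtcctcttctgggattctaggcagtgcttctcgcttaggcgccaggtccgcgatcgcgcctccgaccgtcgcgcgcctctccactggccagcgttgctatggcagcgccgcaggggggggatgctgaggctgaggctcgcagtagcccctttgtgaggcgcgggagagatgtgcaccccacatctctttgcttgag

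Of the 6 transcripts, all of which passed the filter, 4 were called higher in Dis3-/- cells (Neat1, Kcnq1ot1, Pvt1 and Miat), 0 were called lower and 2 were not called, at an adjusted p under 0.05. Across all tested genes, 23.0% were called, 12.7% higher and 10.2% lower. The same 4 had no overlap in CPM between the genotypes, which was the case for 62.4% of all tested genes. Since the members were chosen with this contrast known, nothing is read from these counts. The median log2 fold change of the 6 was 0.89, beside -0.003 over all tested genes. Scale matters for the background. Of the genes called in the main fit 55.5% were higher, against 42.1% with limma on log2(TPM + 1).

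**Figure D3:**
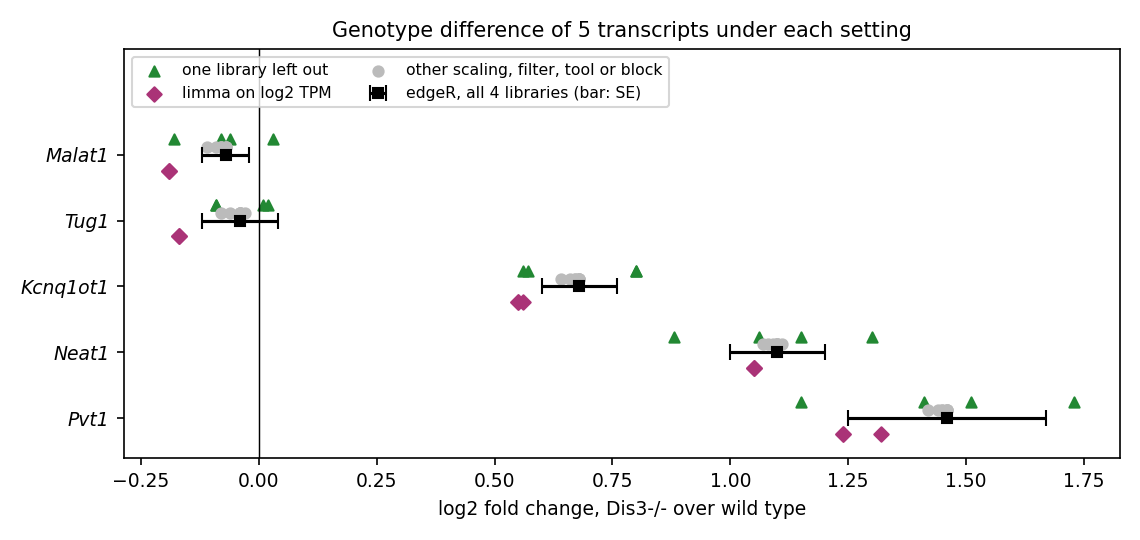
Log2 fold change of Dis3-/- over wild type (horizontal axis) for 5 of the transcripts, with a square and bar for the edgeR estimate and its SE over 4 libraries, triangles for fits that leave out 1 library, diamonds for limma on log2 TPM and circles for the other settings; Miat is left out because both wild-type libraries are at 0. Neat1 (0.88 to 1.3), Kcnq1ot1 (0.55 to 0.80) and Pvt1 (1.15 to 1.73) lie right of 0 in every setting, and Malat1 (-0.19 to 0.03) and Tug1 (-0.17 to 0.02) lie around it.

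By TPM, a scale per length, the order of levels was Malat1, Neat1, Tug1, Kcnq1ot1, Pvt1 and Miat in each of the 4 libraries. No 2 neighbours in this order overlapped within a genotype. In wild-type cells the mean TPM of Malat1 was 7.87 times that of Neat1, Neat1 was 3.33 times Tug1, Tug1 was 3.31 times Kcnq1ot1 and Kcnq1ot1 was 2.75 times Pvt1. In Dis3-/- cells the same steps were 3.29, 7.91, 1.98 and 1.6 times, and Pvt1 was 27.9 times Miat. The step from Malat1 to Neat1 was thus narrower and that from Neat1 to Tug1 wider in Dis3-/- cells. CPM per kb of the longest annotated transcript gave the same order. Among 425 tested long noncoding RNA genes of RefSeq, Malat1, Neat1 and Kcnq1ot1 had ranks 1, 2 and 3 by mean CPM, Tug1 had rank 6, Pvt1 rank 61 and Miat rank 395.

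The proteins that gather on Neat1 and Malat1 were read from lists of genes, and these, like the transcripts, were chosen with earlier results of these data known. Of 33 tested paraspeckle protein genes, 14 (42.4%) were called higher and 1 (3.03%) lower, beside 12.7% and 10.2% of all tested genes, and the median log2 fold change was 0.237, beside -0.003 for all tested genes. The splicing regulator Srsf10 rose by 0.49 (edgeR, Benjamini-Hochberg adjusted p = 0.00115), Hnrnpf by 0.38 (0.00125) and Hnrnpr by 0.42 (0.00203, not called on TPM). Cirbp, the 1 gene called lower, was at 40.6 and 38.6 CPM against 24.7 and 21.6 CPM and was named after its values were seen. Its log2 fold change was -0.78 ± 0.15 (edgeR, Benjamini-Hochberg adjusted p = 0.00208), the largest of the list in either direction. Nono, a core protein of the body, rose by 0.30 (edgeR, Benjamini-Hochberg adjusted p = 0.00797; named after its values were seen). The other core proteins named after their values were seen, Sfpq and Pspc1, had log2 fold changes of 0.04 and 0.15 and were not called. DESeq2 called 8 of the 33, limma on log2(TPM + 1) called 6 and the fit without wild-type replicate 2 called 9, against 15 here.

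Nuclear speckle proteins share their compartment with Malat1. Of their 39 tested genes, 14 (35.9%) were called higher and 1 (2.56%) lower, beside 12.7% and 10.2% of all tested genes. Their median log2 fold change was 0.113, beside -0.003 for all tested genes. Srsf1, a splicing factor that binds Malat1, was at 288 and 283 CPM in the wild-type and 493 and 454 CPM in the Dis3-/- libraries and rose by 0.73 ± 0.07 (SE; edgeR, Benjamini-Hochberg adjusted p = 2.03e-05). The splicing factor Srsf3 rose by 0.52 (edgeR, Benjamini-Hochberg adjusted p = 7.41e-04), the RNA helicase Ddx39b by 0.39 (0.00164) and the export adaptor Alyref by 0.57 (0.00175). Srpk2, the 1 gene called lower, had a log2 fold change of -0.35 ± 0.09 (edgeR, Benjamini-Hochberg adjusted p = 0.0163). It was named after its values were seen. Son and Srrm2, the scaffold proteins of the speckle, each had a log2 fold change of 0.02, were not called and were named after their values were seen. On log2(TPM + 1) the median of the speckle list was 0.00266, next to the shift of -0.104 that this scale gave all tested genes.

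Among 15 tested genes of RNase P, RNase Z and triple helix factors, 2 (13.3%, beside 12.7% of all tested genes) were called higher and 0 lower, and the median log2 fold change was 0.324. Mettl16, a methyltransferase known to bind the Malat1 triple helix, was at 28.2 and 31.9 CPM against 49.1 and 43.6 CPM and rose by 0.63 ± 0.14 (SE; edgeR, Benjamini-Hochberg adjusted p = 0.00527). Pop1, a subunit of RNase P, rose by 0.58 ± 0.17 (edgeR, Benjamini-Hochberg adjusted p = 0.0223), a call that was lost with DESeq2, on TPM, without wild-type replicate 1 and without Dis3-/- replicate 1. Rpph1, the RNA of RNase P, and Elac2, the nuclear and mitochondrial RNase Z, had log2 fold changes of -0.10 and 0.12 and were not called; both were named after their values were seen. Of 5 tested splicing factors linked to Miat, 1 (20%, beside 23.0% of all tested genes) was called, Srsf1, and the median was 0.0164. Of the others, Qk, Sf1, Celf1 and Celf2 had values between -0.17 and 0.13.

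In the list for the imprinted domain around Kcnq1ot1, 1 of 12 tested genes was called higher and 1 lower. Together these were 16.7%, beside 23.0% of all tested genes, and the median log2 fold change was -0.06. Which of the 12 genes Kcnq1ot1 silences in these cells was not tested. Cdkn1c, a cell cycle inhibitor and the best-known gene of the domain in stem cells, was at 8.79 and 7.78 CPM in wild-type and 7.57 and 7.35 CPM in Dis3-/- libraries, without overlap. Its log2 fold change was -0.15 ± 0.28 (SE; edgeR, Benjamini-Hochberg adjusted p = 0.746). Cars, a tRNA synthetase gene at the edge of the domain, rose by 0.66 ± 0.14 (edgeR, Benjamini-Hochberg adjusted p = 0.00454). Osbpl5, a lipid transfer protein gene, was at 22.0 and 22.1 CPM against 12.5 and 13.0 CPM and fell by 0.79 ± 0.19 (edgeR, Benjamini-Hochberg adjusted p = 0.00782). Of 10 tested silencing factors linked to Kcnq1ot1, 4 (40%) were called higher and 0 lower, beside 12.7% and 10.2% of all tested genes. Their median log2 fold change was 0.214, beside -0.003 for all tested genes. The DNA methyltransferase Dnmt1 rose by 0.54 (edgeR, Benjamini-Hochberg adjusted p = 7.93e-05), the Polycomb proteins Ezh2 by 0.56 (0.00143) and Eed by 0.62 (0.00717), and the chromatin remodeller Smarca5 by 0.31 (0.0202). The calls of Eed and Smarca5 were lost without wild-type replicate 1, leaving 2.

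Of the 4 tested genes in the list for the Pvt1 and Myc locus, 0 were called by edgeR, beside 23.0% of all tested genes. DESeq2 and limma on TPM also called 0, and 1 had an unadjusted p under 0.05. Under upper-quartile scaling, and with library totals alone, 1 was called. Myc, a transcription factor that drives growth, lies 47.6 kb from Pvt1. It was at 120 and 110 CPM in the wild-type and 141 and 120 CPM in the Dis3-/- libraries, and its log2 fold change was 0.18 ± 0.10 (SE; edgeR, Benjamini-Hochberg adjusted p = 0.202). Pvt1 itself, on the same strand, had a log2 fold change of 1.46.

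Genes known as upstream or downstream of Tug1 and Neat1 were read in the same way. Of 11 p53 pathway genes, 7 (63.6%) were called higher and 2 (18.2%) lower, beside 12.7% and 10.2% of all tested genes. The median log2 fold change of the list was 0.665, beside -0.003 for all tested genes. The p53 targets Zmat3 (1.27), Eda2r (2.16), Aen (0.99) and Phlda3 (3.13) rose on the log2 scale, with edgeR, Benjamini-Hochberg adjusted p-values from 7.57e-06 to 1.50e-04. Trp53 rose by 0.48 (edgeR, Benjamini-Hochberg adjusted p = 0.00359), while Mdm2, its negative regulator, was at 104 and 120 CPM against 112 CPM in both Dis3-/- libraries. Cdkn1a, a cell cycle inhibitor induced by p53, fell by 0.42 (edgeR, Benjamini-Hochberg adjusted p = 0.0499), a call lost with DESeq2, under the replicate block, without wild-type replicate 2 and without Dis3-/- replicate 2; these 3 genes were named after their values were seen. Trp53inp1, also in the p53 list and called lower, fell by 0.40 ± 0.09 (SE; edgeR, Benjamini-Hochberg adjusted p = 0.00712). It too was named after its values were seen. Among 19 interferon and heat shock genes linked to Neat1, 2 were called higher and 2 lower (21.1% called, beside 23.0% of all tested genes), with a median of -0.0403. Replicates differed widely for some genes that were not called. Hspa1b was at 5.91 and 71 CPM in the wild-type and 5.05 and 15.2 CPM in the Dis3-/- libraries. Mx1 was at 18.6 and 9.05 against 12.1 and 37.4 CPM, and Ifit1 at 32.7 and 11.1 against 23.9 and 29.4 CPM. The chaperone Hspa8 rose by 0.39 (edgeR, Benjamini-Hochberg adjusted p = 5.94e-05) and the interferon-induced Oas2 by 0.33 (0.0195, not called with DESeq2 or on TPM). The interferon signalling genes Stat2 and Irf1 fell by 0.65 (edgeR, Benjamini-Hochberg adjusted p = 0.00772) and 0.38 (0.0200). The calls of Oas2, Stat2 and Irf1 were each lost without wild-type replicate 1.

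**Figure D4:**
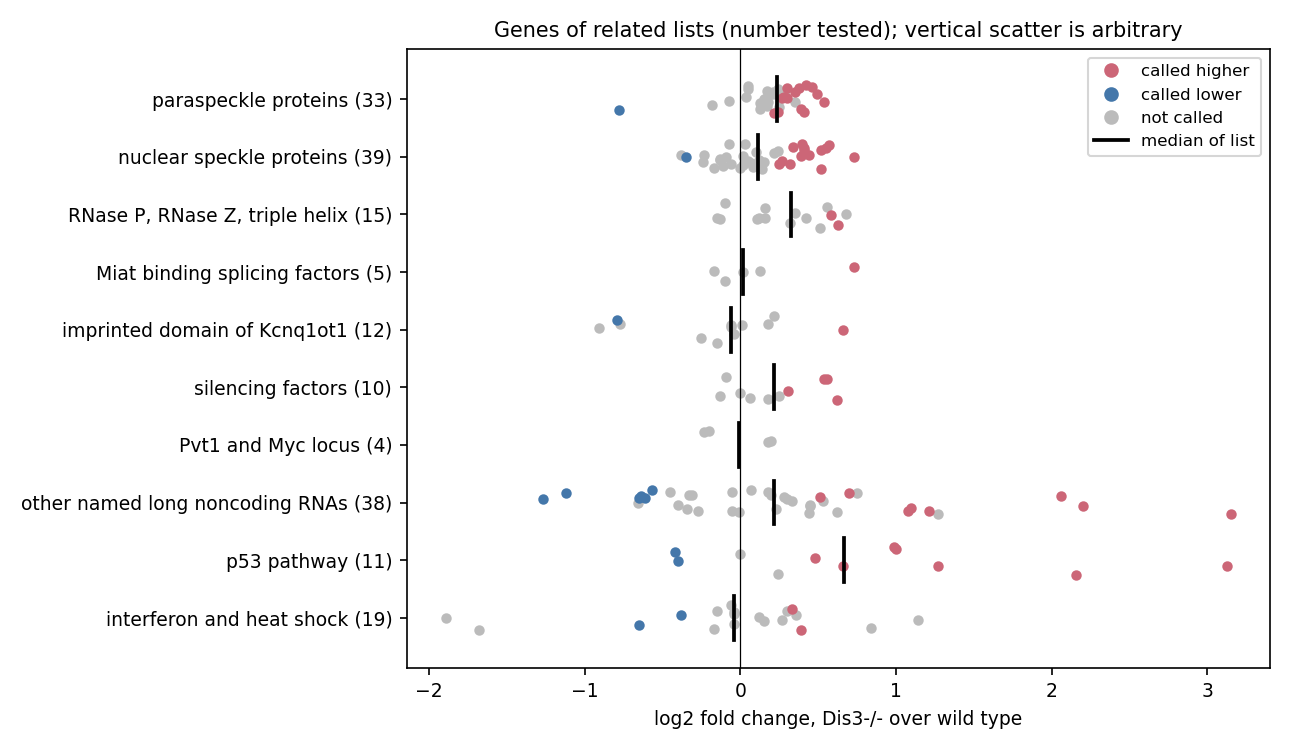
Log2 fold change of Dis3-/- over wild type (horizontal axis) for each tested gene of 10 lists tied to the long noncoding RNAs (rows, with the number tested; vertical scatter within a row is arbitrary), red for genes called higher, blue for lower and grey for not called, and a black bar for the median of the list. Medians run from -0.06 for the imprinted domain of Kcnq1ot1 to 0.665 for the p53 pathway genes.

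Genes next to the 6 transcripts were examined within 200 kb. Of 35 tested neighbours, 5 were called higher and 3 lower (22.9%, beside 23.0% of all tested genes), and their median log2 fold change was 0.00871. Neat1 and Malat1 share most of their neighbours. Frmd8, 5.49 kb from Neat1, had a log2 fold change of -0.12 ± 0.08 (edgeR, Benjamini-Hochberg adjusted p = 0.339). Farther off, Pola2, Sssca1 and, near Malat1 only, Rnaseh2c were called higher and Ltbp3 and Slc25a45 lower, all named after their values were seen. Morc2a starts 0.375 kb from Tug1 on the opposite strand and had a log2 fold change of 0.15 ± 0.10 (edgeR, Benjamini-Hochberg adjusted p = 0.313). Smtn, a smooth muscle cytoskeletal gene 100 kb from Tug1, was at 20 and 18.7 CPM against 36.4 and 33.8 CPM and rose by 0.85 ± 0.15 (edgeR, Benjamini-Hochberg adjusted p = 0.00153). Near Kcnq1ot1, Tssc4 had a log2 fold change of -0.06 ± 0.14 (edgeR, Benjamini-Hochberg adjusted p = 0.794; above 0 without wild-type replicate 1, and also without Dis3-/- replicate 2). Of 6 tested neighbours of Kcnq1ot1, 1 (16.7%, beside 23.0% of all tested genes) was called, Tspan32, which was lower. Their median log2 fold change was -0.209, and 4 had an unadjusted p under 0.05. Slc22a18 was at 9.36 and 11.1 CPM against 6.4 and 5.63 CPM (-0.77 ± 0.29; edgeR, Benjamini-Hochberg adjusted p = 0.069). Cd81 went the other way (0.22 ± 0.08; edgeR, Benjamini-Hochberg adjusted p = 0.0561). Tspan32, Slc22a18 and Cd81 were named after their values were seen. Near Pvt1, H2afy3 rose by 1.55 ± 0.32 (edgeR, Benjamini-Hochberg adjusted p = 0.00362) and lies within the Pvt1 span. Near Miat, 0 of 4 tested genes were called by edgeR or DESeq2 and 0 had an unadjusted p under 0.05, and the nearest, Tpst2, had a log2 fold change of 0.05 ± 0.12 (edgeR, Benjamini-Hochberg adjusted p = 0.806; below 0 on TPM and without Dis3-/- replicate 1).

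**Figure D5:**
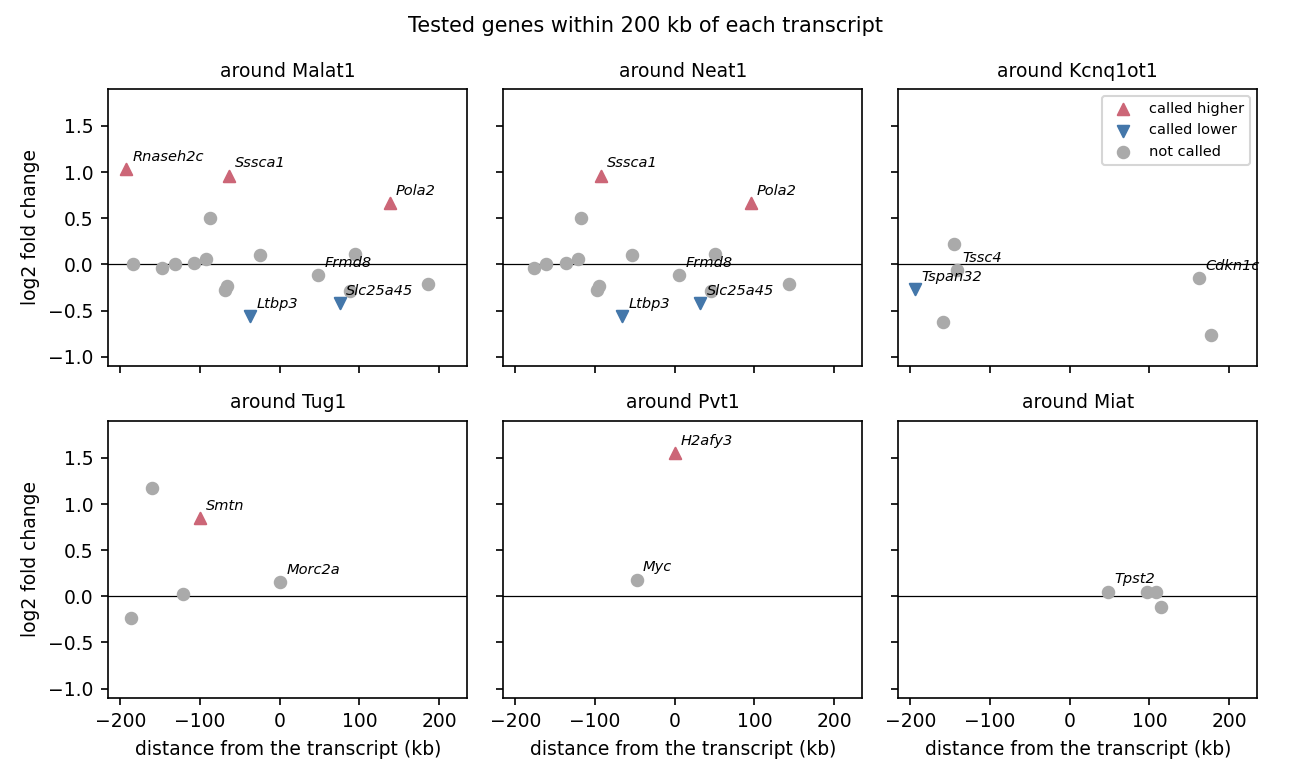
Log2 fold change of Dis3-/- over wild type (vertical axis) for tested genes within 200 kb of each long noncoding RNA, against their distance from it in kb (horizontal axis, negative toward lower coordinates), with upward triangles for genes called higher, downward triangles for lower and circles for not called. Of the 35 neighbours 5 are called higher and 3 lower. H2afy3 (1.55), which overlaps Pvt1, is among the higher ones, and Frmd8 (-0.12), Morc2a (0.15), Myc (0.18) and Tpst2 (0.05) are not called.

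The genes with the most similar profile to each transcript were found by the Euclidean distance between centred log2 CPM values over the 4 libraries, among the 9429 genes that averaged 10 CPM or more. With 4 libraries of 2 genotypes this measure mostly restates the genotype difference and the spread within Dis3-/- cells. Nearest to Neat1 were Mad2l1, a spindle checkpoint gene (distance 0.115; 22.0, 26.2, 45.1 and 57.5 CPM in the order wild-type 1 and 2, Dis3-/- 1 and 2), and the histone variant gene H2afx (0.134). Nearest to Kcnq1ot1 were Slfn9 (0.0412; 115, 95.3, 154 and 178 CPM) and 1600002H07Rik (0.0639). Nearest to Pvt1 were Gem, a small GTPase gene (0.207; 64.8, 66.1, 253 and 151 CPM), and the transcription factor gene Mybl2 (0.235), and both shared with Pvt1 the higher value in Dis3-/- library 1. Nearest to Malat1 were Phkb (0.0269) and Dennd1a (0.0277), and nearest to Tug1 were Golga5 (0.0106) and Paf1 (0.0128). Miat was below the level set for this search.

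Other long noncoding RNAs place the 6 in their class. Of 419 other tested long noncoding RNA genes of RefSeq, 83 (19.8%) were called higher and 17 (4.06%) lower (12.7% and 10.2% over all tested genes). Beside -0.003 for all tested genes, the median log2 fold change of these RNAs was 0.166. DESeq2 called 61 of them and the fit without Dis3-/- replicate 2 called 59, against 100 here. Of 38 tested RNAs from a list of named ones, 8 (21.1%) were called higher and 6 (15.8%) lower, with a median of 0.215. The snoRNA host gene Snhg4 was at 31.0 and 24.9 CPM in the wild-type and 122 and 136 CPM in the Dis3-/- libraries and rose by 2.20 ± 0.12 (SE; edgeR, Benjamini-Hochberg adjusted p = 1.41e-07). Nespas, the antisense RNA of the imprinted Gnas locus, rose by 3.15 ± 0.44 (edgeR, Benjamini-Hochberg adjusted p = 2.37e-04) from 7 and 6 counts to 48 and 62. The imprinted Peg13 fell by 0.65 ± 0.09 (edgeR, Benjamini-Hochberg adjusted p = 2.82e-04) and the X-linked nuclear RNA Firre fell by 0.57 ± 0.08 (edgeR, Benjamini-Hochberg adjusted p = 3.68e-04). Beside the class median of 0.166, Neat1 (1.10), Kcnq1ot1 (0.68) and Pvt1 (1.46) were higher and Malat1 (-0.07) and Tug1 (-0.04) lower.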

How the data were processed

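RamDA-seq libraries of sorted stem cells, 2 wild-type and 2 Dis3-/-, were analysed. Per the submitters' processing notes, the tools were RSEM 1.3.3, STAR 2.7.8a and Trim Galore 0.6.6, on the mm10 build. Their roles, gene annotation and strand use were not given in the sources used here. The authors deposited expected counts per gene (estimated counts, not normalized), of which 92.3% to 92.6% of values were whole in each library (tolerance 0), and a table of TPM that the authors scaled to 1000000 per library. Reads shared by similar genes or isoforms are divided by estimate, so isoform lengths are uncertain.

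In R 4.3.3, rounded counts were fitted by edgeR 4.0.16 (filterByExpr with a minimum count 10 and minimum total 15, TMM scaling, glmQLFit, 2-sided glmQLFTest, Benjamini-Hochberg adjustment over 12244 genes, threshold 0.05). The common biological coefficient of variation was 0.0861. Levels are CPM on TMM-scaled sizes or the deposited TPM. A floor of 3 counts is 0.432 to 0.505 CPM per library. Replicates differed by more than counting noise (chi-square per degree of freedom 3.51 and 4.11). Alternatives used DESeq2 1.42.0, limma 3.58.1 on log2(TPM + 1) and log2(TPM + 0.1), other scalings and filters, and each library left out. The edgeR procedure was tested on simulated data. The 6 transcripts, the gene lists and the tests were chosen with earlier results of these data known. Named genes are the 6, Dis3, the 2 most similar genes per transcript, up to 4 called genes of smallest p per list, the nearest tested neighbours, and others marked as named after their values were seen. Some genes that this rule names are not reported here. Locations come from RefSeq GRCm38.p6 (24290 table symbols matched) and transcript ends from GENCODE M21. Promoters come from RefSeq GRCm38.p6. None of the columns belonged to other samples.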

Additional observations from a re-analysis of the deposited data

How the results depend on the processing

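The direction of Neat1, Kcnq1ot1 and Pvt1 held in all 15 alternatives, with log2 fold changes of 0.88 to 1.3, 0.55 to 0.80 and 1.15 to 1.73, while Malat1 ranged from -0.19 to 0.03 and Tug1 from -0.17 to 0.02. The same 4 transcripts were called under most settings; limma on log2(TPM + 1) did not call Miat (3 called), its unfiltered version called only Neat1, and the fit without Dis3-/- replicate 2 gave 5 calls, Malat1 included, with the lone Dis3-/- library assumed to vary like the wild-type pair. Over all genes 1561 were called higher and 1250 lower. DESeq2 called 1000 and 742, and limma on log2(TPM + 1) without a filter called 479 and 471. Leaving out 1 library gave 1226 to 1319 higher and 886 to 1060 lower. With a replicate block 1463 were higher and 1151 lower, and no transcript's call changed under the block. Deviations of same-numbered libraries had a correlation of -0.0293. This value cannot show whether same-numbered libraries were paired, which the labels do not say. Called genes numbered 15 of the paraspeckle list but 8 with DESeq2, 6 on TPM and 9 without wild-type replicate 2. They numbered 4 of the silencing factors but 2 without wild-type replicate 1, and 100 of all other long noncoding RNAs but 61 with DESeq2 and 59 without Dis3-/- replicate 2. They numbered 2 of the RNase P list but 1 with DESeq2, on TPM and without Dis3-/- replicate 1; 1 of the Miat factors but 2 without Dis3-/- replicate 1; 0 of the Myc locus but 1 under upper-quartile scaling, library totals and without wild-type replicate 1; 14 of the named noncoding RNAs but 9 with DESeq2; 4 of the interferon and heat shock genes but 8 without a filter; and 8 neighbours but 5 with DESeq2, without wild-type replicate 1 and without Dis3-/- replicate 2. Unfiltered limma on log2(TPM + 1) called 2 or fewer in the paraspeckle, speckle, RNase P, imprinted, silencing, interferon and neighbour lists, 7 named noncoding RNAs and 40 of all. The causes were not tested. With 0 counts in wild-type and at most 28 in Dis3-/- libraries, depth gives Miat no more than a rough lower bound.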
